A study of Mus musculus with 6 samples.

Results

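The 10 genes described here encode secreted antagonists of Wnt signalling and regulators grouped with its feedback targets, and were taken by symbol from the 19739 genes of the table. They fell into 3 secreted antagonists, Wif1, Sfrp1 and Dkk3, and 7 feedback targets, Nkd1, Nkd2, Axin2, Lgr4, Znrf3, Rnf43 and Notum, and all 10 were found. The set was proposed with earlier results of the same EFNA3 comparison known, so the differences of these 10 genes are given as a description, with no test. RNA had been sequenced from mouse mammary luminal cells, the inner epithelial layer of the mammary duct, sorted by flow cytometry and cultured with FBS, EGF, FGF2, heparin and the ROCK inhibitor Y-27632. The cells of both groups carried the genotype WT, and strain, age and number of animals are not given in the labels. All were held without serum for 12 hours. For the next 24 hours, still without serum, the EFNA3 group (3 libraries) received EFNA3 protein at 1 µg/ml and the control group (3 libraries) 0 µg/ml. EFNA3 is ephrin-A3, a ligand of Eph receptors that normally sits on the membrane of a neighbouring cell. The study asked how this protein affects gene expression in luminal cells.

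Wnt proteins are lipid-modified ligands that bind Frizzled receptors and the co-receptors Lrp5 and Lrp6, which stops the destruction of beta-catenin and lets it act with TCF/LEF factors on target genes. Some secreted antagonists bind Wnt ligands outside the cell, and others bind the co-receptors. Several target genes encode inhibitors of the pathway and so close a negative feedback loop. In the mammary gland Wnt signalling is known for its part in duct formation and in the upkeep of basal stem cells.

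All values are log2 expression as deposited, in which the 6 libraries share 1 distribution with a median of 8.10. The depth of the libraries is therefore unknown, and no counting interval is given; a shift common to all genes cannot be seen either. Whether replicates are separate animals or cultures is not stated, so errors measure the spread between these libraries, which may be technical. All 8 general luminal markers lay above the median, with Krt8 between 13.73 and 13.94 in EFNA3 libraries and between 13.67 and 13.78 in controls. Of the 8, 7 had higher means with EFNA3 and 3 lay wholly above controls, with a median log2 difference of 0.19. Over all tested genes 50.8% had higher means and 8.53% lay wholly above controls. The median transcript length of the 8 was 1887 nt. In the eighth of tested genes from 1778 to 2410 nt, 12.4% lay wholly above controls and the median difference was 0.09. Of 9 basal and myoepithelial markers, 5 lay above the median, among them Krt14 at 16.36 to 16.44 in EFNA3 libraries and 16.21 to 16.36 in controls, and Oxtr at 13.11 to 13.43 in EFNA3 libraries and 13.41 to 13.47 in controls. The contractile genes ranged from Mylk, at 8.44 to 9.21 in EFNA3 libraries and 9.27 to 9.46 in controls, down to Myh11, at 0.78 to 1.65 in EFNA3 libraries and 1.66 to 3.31 in controls, too low to be tested. The mean log2 level of the 9 basal markers ran from 8.82 to 9.06 in EFNA3 libraries and from 9.18 to 9.45 in controls, with no overlap. That mean gives Myh11 and Cnn1, both too low to be tested, the same weight as the others. Of the 7 tested, 3 had higher and 4 lower means, with a median log2 difference of -0.05. The summed level of the 9, carried by the keratins, ran from 16.98 to 17.05 in EFNA3 libraries and from 16.90 to 16.99 in controls. The summed level of the 8 fibroblast markers analysed, of 9, ran from 10.86 to 10.99 in EFNA3 libraries and from 10.97 to 11.03 in controls. Their mean log2 level ran from 6.32 to 6.74 in EFNA3 libraries and from 6.03 to 6.61 in controls. Of the 8, 6 had higher and 2 lower means with EFNA3, with a median log2 difference of 0.36. The higher ones included Thy1, Col3a1, Col1a2 and Pdgfrb, with SEs from 0.35 to 0.79. Of the 8, 0 lay wholly above controls, and the 2 lower ones, Pdgfra and Fbln1, lay wholly below. Over all tested genes 7.45% lay wholly below controls. Of 5 adipocyte markers tested, 4 had lower means, with a median log2 difference of -0.35. The part of these marker shifts in the differences below was not tested. EFNA3 replicate 1 stood apart from the other libraries with transcript length: it was the lowest of 6 libraries for 80.8% of tested genes in the longest eighth, and the highest for 52.3% in the shortest.

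Of the 10 genes, Wif1 and Notum were the ones whose EFNA3 libraries all lay above all controls, and no gene had all EFNA3 libraries below all controls. Across all 16394 genes tested, 8.53% had the EFNA3 libraries all above the controls and 7.45% all below. Because the comparison had a part in the choice of the genes, nothing is read from the 2 of 10. Sfrp1, Dkk3, Lgr4, Znrf3 and Rnf43 had lower means with EFNA3, by at most 0.17 on the log2 scale, and their groups overlapped. Nkd1, Nkd2 and Axin2 had higher means, and their groups overlapped too. With Wif1 and Notum, 5 of 10 means were higher, where 50.8% of all tested genes had a higher mean. The median difference was -0.09 for the antagonists and 0.02 for the feedback targets, against 0.0038 over all tested genes. In the limma fit 0 of the 16394 genes, or 0%, passed at an adjusted p of 0.05, and the smallest adjusted p was 0.55; 6.73% had an unadjusted p under 0.05.

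**Figure D1:**
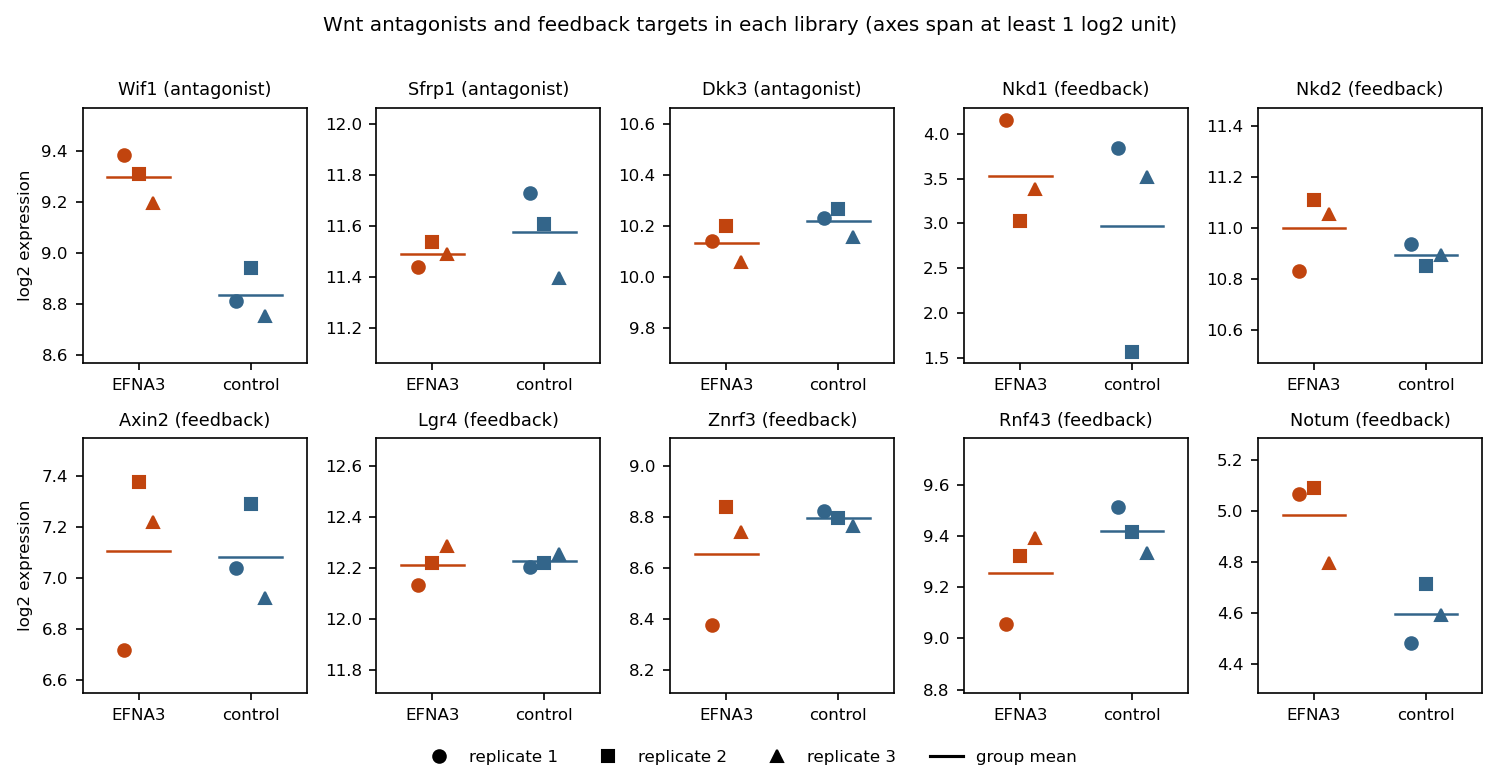
Deposited log2 expression (vertical axes) of the 10 genes in each of the 3 EFNA3 libraries (left in each panel) and 3 control libraries (right), with the symbol giving the replicate and the line the group mean. For Wif1 the EFNA3 libraries sit between 9.20 and 9.38 and the controls between 8.75 and 8.94; for Notum the EFNA3 libraries sit between 4.80 and 5.09 and the controls between 4.48 and 4.71. In 5 of the feedback targets EFNA3 replicate 1 is the lowest point of the panel.

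Wif1, Wnt inhibitory factor 1, is a secreted protein that binds Wnt ligands outside the cell. Its log2 values were 9.38, 9.31 and 9.20 in EFNA3 replicates 1, 2 and 3, against 8.81, 8.94 and 8.75 in control replicates 1, 2 and 3. The lowest EFNA3 library lay above the highest control. The means were 9.30 ± 0.09 with EFNA3 and 8.84 ± 0.09 in controls (SD, n = 3 each), a log2 difference of 0.46 (SE 0.09) or 1.38-fold. In size this was larger than 91.5% of the differences of all tested genes, and it was number 696 of 16394 in order from the highest. The difference stayed between 0.42 and 0.51 when any 1 library was left out. It was 0.44 once trends with transcript length and GC share had been taken out of each library, called the length and GC correction from here on.

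The stretch of DNA just before the start of Wif1 is shown with that of Axin2, the feedback gene most used as a readout of beta-catenin, because the levels of Wif1 stood apart between the groups and those of Axin2 did not. Both are RefSeq windows of 250 bases before the start, plus strand, in build GRCm38.p6, an earlier build than the mm39 of the deposited data: chr10:121033754-121034003 for Wif1 and chr11:108920099-108920348 for Axin2. Capitals mark each CpG dinucleotide.
Wif1: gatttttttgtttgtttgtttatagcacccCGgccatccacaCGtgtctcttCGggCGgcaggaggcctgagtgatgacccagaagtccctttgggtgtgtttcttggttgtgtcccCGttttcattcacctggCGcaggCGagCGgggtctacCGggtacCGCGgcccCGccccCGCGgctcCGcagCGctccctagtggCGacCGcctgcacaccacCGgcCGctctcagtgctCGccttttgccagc
Axin2: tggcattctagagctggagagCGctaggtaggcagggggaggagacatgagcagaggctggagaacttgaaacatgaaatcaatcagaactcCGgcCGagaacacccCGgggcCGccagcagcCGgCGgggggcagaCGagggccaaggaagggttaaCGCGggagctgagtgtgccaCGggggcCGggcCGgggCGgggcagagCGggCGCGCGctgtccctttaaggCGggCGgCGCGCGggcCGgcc
The Wif1 window held 21 CpG and the Axin2 window 24, against a median of 6 over 32817 windows of the same length. The counts stand above 83.7% and 88.0% of those windows. The TCF/LEF core was searched as CTTTGAT or CTTTGTT or CTTTGAA or CTTTGTA on both strands. No match was found in the 7 windows at hand for 6 of the 10 genes (Wif1, Nkd1, Nkd2, Axin2, Lgr4 and 2 starts of Rnf43), and 14.8% of all windows hold at least 1. A missing match says only that these letters are not in the 250 bases searched.

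Sfrp1 and Dkk3 lay higher in level than Wif1 and differed little between the groups. Sfrp1, secreted frizzled-related protein 1, binds Wnt ligands through a domain like that of Frizzled receptors. Its log2 values were 11.44, 11.54 and 11.49 in EFNA3 replicates 1, 2 and 3, against 11.73, 11.61 and 11.40 in control replicates 1, 2 and 3. The EFNA3 libraries fell inside the range of the controls. The log2 difference was -0.09 (SE 0.09). It was -0.01 without control replicate 1 and -0.18 without control replicate 3. In the latter case the EFNA3 libraries lay wholly below the controls, as 16.4% of all tested genes did.

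Dkk3 is a member of the Dickkopf family of secreted proteins, whose best known members block Lrp5 and Lrp6. Its log2 values were 10.14, 10.20 and 10.06 in EFNA3 replicates 1, 2 and 3, against 10.23, 10.27 and 10.16 in control replicates 1, 2 and 3. The ranges overlapped by EFNA3 replicate 2, which lay above control replicate 3. The log2 difference was -0.09 (SE 0.08). It kept its sign in 16 of 16 alternative settings, some of which cannot change it, and ran between -0.12 and -0.05. The EFNA3 libraries lay wholly below the controls without EFNA3 replicate 2 and without control replicate 3, when 14.1% and 16.4% of all tested genes did.

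Among the feedback targets, Notum encodes a secreted enzyme that removes the lipid from Wnt proteins and so inactivates them. Its log2 values were 5.07, 5.09 and 4.80 in EFNA3 replicates 1, 2 and 3, against 4.48, 4.71 and 4.59 in control replicates 1, 2 and 3. The groups did not overlap, with EFNA3 replicate 3 above control replicate 2 by less than 1 SD of either group. The log2 difference was 0.39 (SE 0.24), or 1.31-fold. Notum was expressed well below the median gene, above 29.0% of all genes, and its SE was wider than that of Wif1. The difference ran from 0.33 to 0.48 when 1 library at a time was left out and was 0.33 with the length and GC correction.

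Wif1 and Notum have transcripts of 2294 and 2212 nt, the shortest of the 10 and both in the eighth from 1778 to 2410 nt. In that eighth the median difference was 0.09, and 12.4% of genes had the EFNA3 libraries all above the controls. EFNA3 replicate 1 deviated from the mean of 6 libraries by 0.15 in that eighth, by 0.32 for Wif1 and by 0.28 for Notum. Without EFNA3 replicate 1 the differences were 0.42 for Wif1 and 0.35 for Notum.

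Axin2 encodes a scaffold of the complex that marks beta-catenin for destruction. Its log2 values were 6.72, 7.38 and 7.22 in EFNA3 replicates 1, 2 and 3, against 7.04, 7.29 and 6.92 in control replicates 1, 2 and 3. EFNA3 replicate 1 was the lowest of the 6 libraries and EFNA3 replicate 2 the highest, so the controls lay inside the EFNA3 range. The log2 difference was 0.02 (SE 0.19). Without EFNA3 replicate 1 it was 0.22, and without EFNA3 replicate 2 it was -0.12, so the direction rested on single libraries.

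Nkd1 and Nkd2 encode the Naked cuticle proteins, which bind Dishevelled and dampen the signal inside the cell. Nkd2 was the abundant one. It had 10.83, 11.11 and 11.05 in EFNA3 replicates 1, 2 and 3, against 10.93, 10.85 and 10.89 in control replicates 1, 2 and 3. EFNA3 replicates 2 and 3 lay above all controls and EFNA3 replicate 1 lay below them. The log2 difference was 0.11 (SE 0.09), and 0.19 without EFNA3 replicate 1, when the groups no longer overlapped. Without that library 10.4% of all tested genes had the EFNA3 libraries above all controls.

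Nkd1 was near the lower limit of the genes tested. Its values were 4.16, 3.03 and 3.39 in EFNA3 replicates 1, 2 and 3, against 3.84, 1.57 and 3.52 in control replicates 1, 2 and 3, on the log2 scale. Control replicate 2 lay far below the other libraries, and the groups overlapped. The log2 difference of 0.55 (SE 0.64) was the largest of the 10 and had the widest error, and it ran from -0.15 without control replicate 2 to 0.98 without control replicate 1, with 0.23 without EFNA3 replicate 1. Of all tested genes, Gm6257, Gm15264 and Sema7a followed the profile of Nkd1 over the 6 libraries most closely. Their root mean square differences from it after centring were 0.18, 0.18 and 0.20 on the log2 scale. Control replicate 2 was the lowest library in these genes too, at 3.18, 1.88 and 1.88. Some genes always come closest, so nothing about shared regulation is read from this likeness.

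Znrf3 and Rnf43 encode membrane ubiquitin ligases that remove Frizzled receptors from the cell surface. Znrf3 had log2 values of 8.38, 8.84 and 8.74 in EFNA3 replicates 1, 2 and 3, against 8.82, 8.80 and 8.77 in control replicates 1, 2 and 3. EFNA3 replicate 1 lay well below the other libraries, which ran from 8.74 to 8.84. The log2 difference of -0.14 (SE 0.13) was -0.0041 without EFNA3 replicate 1 and 0.0018 with the length and GC correction. Without EFNA3 replicate 2 it was -0.23, with the EFNA3 libraries wholly below the controls, as 14.1% of all tested genes were. Rnf43 had 9.05, 9.32 and 9.39 in EFNA3 replicates 1, 2 and 3, against 9.51, 9.42 and 9.34 in control replicates 1, 2 and 3. EFNA3 replicate 3 lay above control replicate 3, and EFNA3 replicate 1 was the lowest of 6. Its log2 difference was -0.17 (SE 0.11), -0.06 without EFNA3 replicate 1 and -0.13 with the correction. Leaving out EFNA3 replicate 3 gave -0.23 and leaving out control replicate 3 gave -0.21, and in both cases the EFNA3 libraries lay wholly below the controls, as 16.8% and 16.4% of all tested genes did.

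Lgr4 encodes a receptor for R-spondins, which draw the Znrf3 and Rnf43 proteins away from Frizzled and so strengthen Wnt signalling. It had 12.13, 12.22 and 12.29 in EFNA3 replicates 1, 2 and 3, against 12.20, 12.22 and 12.26 in control replicates 1, 2 and 3. The range over all 6 libraries was 0.15 on the log2 scale, the narrowest of the 10 genes. The log2 difference was -0.01 (SE 0.07), 0.03 without EFNA3 replicate 1 and 0.08 with the length and GC correction.

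**Figure D2:**
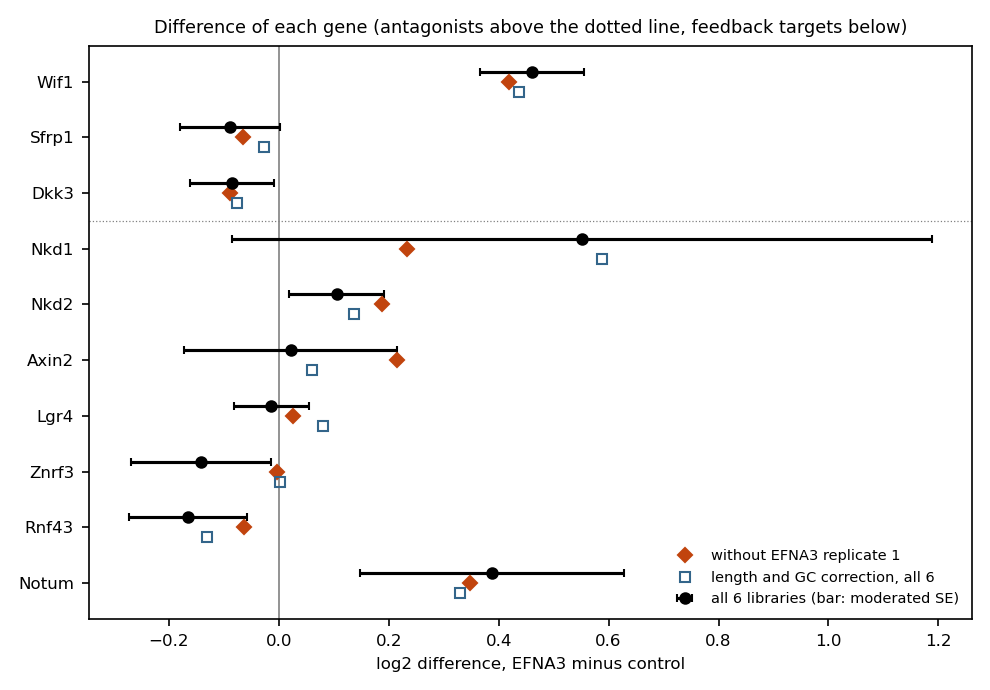
Log2 difference, EFNA3 minus control (horizontal axis), of each of the 10 genes from all 6 libraries with its moderated SE (black), without EFNA3 replicate 1 (filled diamonds) and with the length and GC correction (open squares). Wif1 stays near 0.4 to 0.5 in all 3, while the estimate for Nkd1 has an SE of 0.64 and those of Axin2 and Znrf3 shift when EFNA3 replicate 1 is left out.

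In the feedback targets 1 library set much of the spread. EFNA3 replicate 1 was the lowest of 6 in Nkd2, Axin2, Lgr4, Znrf3 and Rnf43, that is in 5 of 7 feedback targets, and in 0 of 3 antagonists; over all tested genes it was the lowest in 33.2%. Those 5 genes have transcripts of 4016 to 6311 nt. That library was the lowest for 40.3% of tested genes in the eighth with Nkd2, Axin2 and Rnf43. It was the lowest for 62.9% in the eighth with Lgr4 and for 80.8% in that with Znrf3. In the eighths of the antagonists Wif1, Dkk3 and Sfrp1 it was the lowest for 11.4%, 28.7% and 40.3%. In the eighth from 3693 to 4518 nt, which holds Axin2, Nkd2 and Rnf43, the median deviation of that library was -0.04, against -0.38, -0.11 and -0.28 for the 3 genes. For Lgr4 the deviation was -0.09 beside -0.15 in its eighth, and for Znrf3 -0.35 beside -0.32. Without EFNA3 replicate 1 the median difference of the feedback targets was 0.19. The part of transcript length in these differences was not tested beyond the correction, under which that median was 0.08.

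**Figure D3:**
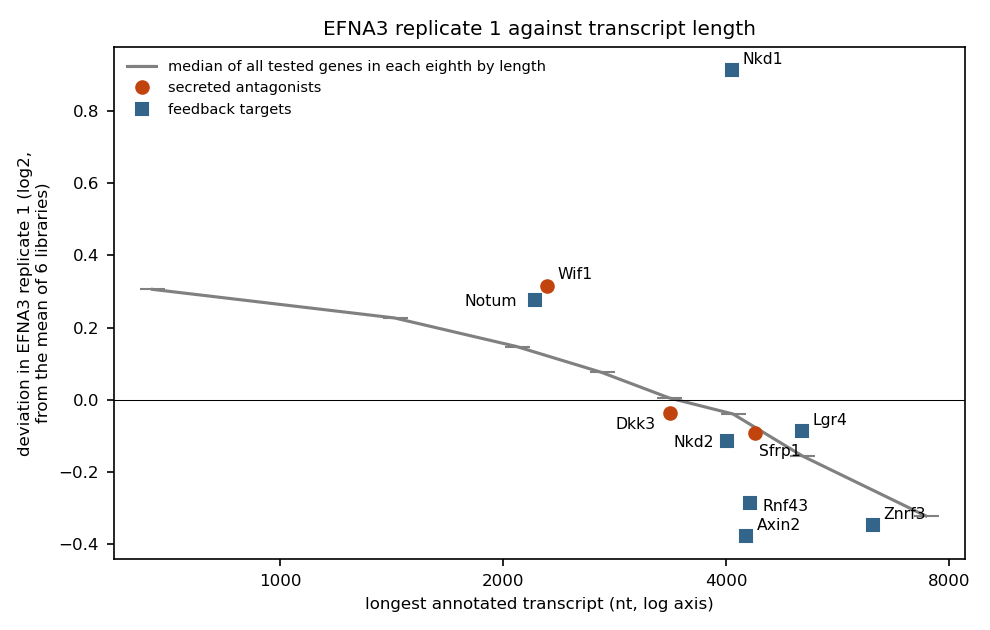
Deviation of EFNA3 replicate 1 from the mean of 6 libraries (log2, vertical axis) against the length of the longest annotated transcript (nt, log axis) for the antagonists (circles) and feedback targets (squares), with the median of all tested genes in each eighth by length (grey line). The line falls to -0.32 in the longest eighth, against 0.31 in the shortest; Axin2 and Rnf43 lie below it, Wif1 and Notum above it, and Nkd1 far above at 0.91.

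Levels of different genes were compared per kb of the longest annotated transcript, which may not be the form these cells make. Lgr4 was the highest, with a log2 level per kb of 9.87 ± 0.08 in EFNA3 libraries and 9.89 ± 0.03 in controls (SD, n = 3 each). Sfrp1, Nkd2, Dkk3, Wif1, Rnf43, Znrf3, Axin2, Notum and Nkd1 followed in that order in both groups. Nkd1 was the lowest, with a log2 level per kb of 1.50 ± 0.58 in EFNA3 libraries and 0.95 ± 1.23 in controls. No 2 neighbours in this order overlapped over the 3 libraries of a group. The closest were Dkk3 and Wif1 in EFNA3 libraries, with a gap of 0.13 on the log2 scale, and Wif1 and Rnf43 in controls, with a gap of 0.15. The antagonists thus held places 2, 4 and 5, and the feedback targets spread over the whole range.

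The rest of the pathway was followed in 7 lists with 102 genes, chosen for their roles with earlier results of these data known. Of these, 89 were analysed and 80 were tested, of which 35 had a higher and 45 a lower mean with EFNA3. The median difference was -0.02, against 0.0038 over all tested genes, of which 50.8% had a higher mean. The median transcript length of the 80 was 4018 nt. In the eighth from 3693 to 4518 nt the median difference of tested genes was also -0.02. The EFNA3 libraries lay wholly above the controls for 5 of the 80, Wnt9a, Wnt10a, Wls, Sostdc1 and Procr. They lay wholly below for 4 of the 80, Fzd4, Lrp6, Dvl3 and Apc. Over all 16394 tested genes the counts were 1398 (8.53%) and 1221 (7.45%). None of the 80 passed limma over all genes (0 at an adjusted p of 0.05). At an unadjusted limma p under 0.05 stood 1 of the 80 with a higher and 3 of the 80 with a lower mean. Over all 16394 tested genes there were 635 (3.87%) and 469 (2.86%). For the 80, a single library could change the numbers. The counts of higher and lower means among the 80 at that p ran from 0 to 4 and from 1 to 10 when 1 library was left out.

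Of the Wnt ligands, 11 of 19 were tested, 6 with higher and 5 with lower means. Wnt10a averaged 7.94 ± 0.17 in EFNA3 libraries and 7.62 ± 0.10 in controls (SD, n = 3 each), a log2 difference of 0.31 (SE 0.13) with no overlap between groups and a limma adjusted p of 0.55. Wnt5a, which mostly signals without beta-catenin, averaged 8.97 ± 0.18 with EFNA3 and 9.28 ± 0.14 in controls, a difference of -0.32 (SE 0.12) with a limma adjusted p of 0.55. The groups of Wnt5a overlapped, and the difference was -0.23 without EFNA3 replicate 1 and -0.16 with the length and GC correction, where its unadjusted limma p was 0.119. The ligands with the highest values were Wnt5b, Wnt7b, Wnt4 and Wnt10b, which differed by 0.15 (SE 0.09), 0.11 (SE 0.09), 0.16 (SE 0.13) and -0.02 (SE 0.08). Wls, the carrier that brings Wnt proteins to the cell surface, stood at 12.93 ± 0.04 with EFNA3 and 12.86 ± 0.04 in controls, while the R-spondin gene Rspo3 was low, at 3.76 ± 0.41 with EFNA3 and 3.97 ± 0.30 in controls. Porcn, the enzyme that attaches the lipid, differed by -0.02 (SE 0.09).

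All 18 receptor and co-receptor genes were tested, 6 with higher and 12 with lower means, where 50.8% of all tested genes had a higher mean. The median transcript length of the 18 was 4662.5 nt. In the eighth of tested genes from 4518 to 5949 nt the median difference was -0.08, and 12.3% lay wholly below controls. The part of length in these counts was not tested. Fzd4 averaged 8.96 ± 0.16 in EFNA3 libraries and 9.33 ± 0.17 in controls (SD, n = 3 each), a log2 difference of -0.37 (SE 0.12) with all EFNA3 libraries below all controls and a limma adjusted p of 0.55. Its transcript is long, at 6720 nt, and the difference was -0.21 with the length and GC correction and -0.28 without EFNA3 replicate 1. The rarer Fzd10 differed by -0.83 (SE 0.36), with 3.81 ± 0.34 in EFNA3 libraries and 4.63 ± 0.53 in controls, overlapping groups and a limma adjusted p of 0.55. The most abundant members Fzd7, Ptk7, Lrp6 and Lrp5 differed by -0.02 (SE 0.07), -0.03 (SE 0.06), -0.24 (SE 0.13) and -0.16 (SE 0.10). The EFNA3 libraries of Lrp6 lay below all controls, with EFNA3 replicate 1 at 12.28 and EFNA3 replicates 2 and 3 at 12.76 and 12.77, against 12.78 to 12.89 in controls. The Lrp6 transcript has 9368 nt. Lrp6 and Fzd4 both fall in the longest eighth of tested genes, where 19.9% lay wholly below controls.

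Other extracellular inhibitors had 4 higher and 4 lower means among 8 tested of 14. Igfbp4, Sostdc1, Kremen1 and Sfrp2, those with the highest values, differed by 0.13 (SE 0.09), 0.14 (SE 0.08), -0.12 (SE 0.10) and 0.37 (SE 0.25). Sostdc1, a secreted inhibitor of Wnt and BMP signalling, had no overlap, at 10.85 ± 0.09 with EFNA3 and 10.71 ± 0.10 in controls. The separation was narrow, as its lowest EFNA3 library read 10.768 and its highest control 10.764. The Sostdc1 transcript, of 1781 nt, falls in the eighth from 1778 to 2410 nt. There 12.4% of tested genes were wholly above controls, and the median difference was 0.09. In the Dishevelled and destruction complex list 10 of 20 tested genes had a higher mean. Beta-catenin itself, Ctnnb1, read 15.90 in all 3 EFNA3 libraries and in control replicate 3, with 15.72 and 15.82 in control replicates 1 and 2. The controls averaged 15.81 ± 0.09, and the groups overlapped. Because the 6 libraries share 1 distribution, equal readings can mean equal rank, so they do not measure how closely the libraries agree. The kinase genes Csnk1a1 and Gsk3b and the tankyrase gene Tnks2, whose products act in or on the complex, differed by 0.03 (SE 0.07), -0.15 (SE 0.09) and -0.06 (SE 0.07).

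Among TCF/LEF factors and their partners 3 tested genes had higher and 8 lower means. The median transcript length of these 11 was 4388 nt. In the eighth from 3693 to 4518 nt the median difference of tested genes was -0.02. Tcf7l2 differed by 0.16 (SE 0.10), Tle1 by 0.02 (SE 0.07), Tle3 by -0.06 (SE 0.06) and Bcl9l by -0.14 (SE 0.09). Other genes often used as beta-catenin targets had 5 higher and 4 lower means. Of these, Cd44 differed by -0.0045 (SE 0.07), the cyclin gene Ccnd1 by -0.04 (SE 0.10), Met by -0.15 (SE 0.10) and Jun by 0.07 (SE 0.07). In bulk RNA, a change in the share of cells that make a transcript and a change in its level per cell cannot be told apart for any of these genes.

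**Figure D4:**
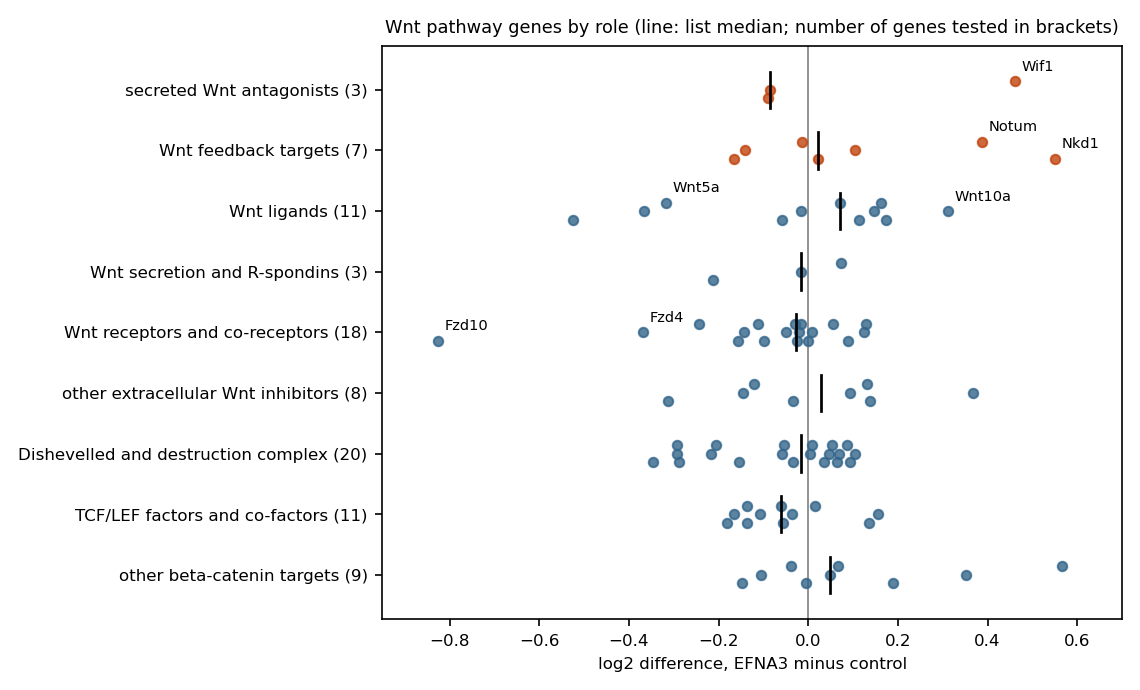
Log2 difference, EFNA3 minus control (horizontal axis), of the 10 genes (top 2 rows) and of 80 further tested Wnt pathway genes grouped by role; each point is a gene, the black line is the list median, and the number of genes is in brackets. The list medians lie between -0.09 and 0.07, and Wif1, Notum and Nkd1 lie to the right of the other members.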

How the data were processed

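RNA from 6 libraries was sequenced, 3 per group, grouped by the titles of the samples. Reads went through Trim Galore, Subread and featureCounts on mm39, per the submitters' processing notes. Sources used here do not state their versions, the annotation, the strand setting or the step to log2. The authors deposited 1 table of log2 values for 19739 genes, from -0.79 to 18.1; the base is inferred. Its sorted columns differ by at most 0.00302, as after quantile normalization. Genes with a log2 value of at least 3.32 (10 on the linear scale) in 3 libraries were tested, 16394 in all, including all 10 members. The difference, EFNA3 minus control, came from limma 3.58.1 under R 4.3.3 (mean-variance trend, no block, two-sided, Benjamini-Hochberg at 0.05); SEs are the moderated ones. The fit was also run on simulated data with known changes. Two-sided exact permutation of 3 against 3 libraries cannot go below 0.1.

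The members and lists were chosen with earlier results of these data known. Wider Wnt genes were named by level, up to 4 per list, or by an unadjusted p under 0.05; likeness was sought for the member with the widest range. Length and GC share are those of the longest transcript in GENCODE M21, an earlier mouse build, found for 97.4% of tested genes. The correction took out of every library a spline in each (5 degrees of freedom). Alternatives covered filter, pseudocount, centring, variance trend, library weights, replicate blocks, this correction and leaving out each library.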

Additional observations from a re-analysis of the deposited data

How the results depend on the processing

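Wif1, Nkd2 and Notum had a positive difference, and Sfrp1, Dkk3 and Rnf43 a negative one, under every alternative that gave a value (16 for each gene, 15 for Notum). Nkd1 was below 0 in 1 of 15, Axin2 in 5 of 16; Lgr4 was above 0 in 5 of 16 and Znrf3 in 2 of 16. The filter 5 times stricter left Nkd1 and Notum untested. Lgr4 moved by more than the spread between replicates with the length and GC correction, to 0.08 or, without EFNA3 replicate 1 as well, 0.06, and Znrf3 with the latter, to 0.05. The median of the feedback targets was 0.18 with library weights, which gave EFNA3 replicate 1 the lowest weight, and between -0.035 (without EFNA3 replicate 3) and 0.19 (without EFNA3 replicate 1) when 1 library was left out, or 0.20 without EFNA3 replicate 1 and with the correction; that of the antagonists ran from -0.12 to -0.01.

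No gene passed limma over all genes under any alternative but 1: with the replicate block set by the description labels 71 passed, on 1 residual degree of freedom, and 0 of these were wider Wnt genes. Wider Wnt genes with an unadjusted p under 0.05 and a higher mean, 1 in the main result, numbered 2 with no variance trend, 0 with a replicate block by titles and 0 with that by descriptions, and 0 to 4 when 1 library was left out. Those with a lower mean, 3 in the main result, numbered 1 to 10. The block by titles is balanced and cannot change a difference. The filters and the variance trend cannot change the difference of a gene either, so these settings add nothing to the counts of signs above. The description labels number EFNA3 replicates 1, 2 and 3 as 1, 6 and 7, and control replicates 1, 2 and 3 as 1, 3 and 7. In that block EFNA3 replicate 2 and control replicate 2 have no partner and add nothing to a difference. With the block by the description labels the difference was 0.10 for Nkd1, 0.03 for Nkd2, -0.01 for Axin2 and -0.23 for Znrf3. Same-numbered libraries did not deviate together: the correlations across genes were -0.105, 0.030 and -0.318 for replicates 1, 2 and 3. With only log2 values of 1 common distribution, depth could not be weighed.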
